A study of Mus musculus with 22 samples.

Results

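Donor CD4 and CD8 T cells from the spleen of transplant recipients were compared in how their transcripts differed between anti-IL-2 and IgG treatment. The quantity throughout is a difference of effects: the log2 fold change of anti-IL-2 over IgG in CD4 cells minus the same fold change in CD8 cells. A positive value means that the CD4 effect lay above the CD8 effect, whichever way each moved. The members were the 12 spleen libraries of the 22 libraries in the series, chosen by the labelled tissue, in 4 groups (CD4 anti-IL-2, CD4 IgG, CD8 anti-IL-2 and CD8 IgG) with 1 library in each of the 3 batches 181201, 181212 and 190306. Donors were wild-type C57BL/6 mice that gave spleen and bone marrow cells, and recipients were lethally irradiated wild-type BALB/c mice, which are mismatched for their major histocompatibility antigens. All groups shared that transplant. Either a monoclonal antibody against IL-2 or control IgG was injected every other day up to day 6, and donor T cells were sorted on day 7. The age of the mice is not given in the sources used here, and the labels do not say whether a library pooled animals. Batch 190306 is given apart, because its labelled treatment difference ran the other way, as shown near the end.

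IL-2 is a growth factor that activated T cells make and take up. It binds a receptor of 3 chains (Il2ra, Il2rb and the common gamma chain), and the signal reaches the nucleus mainly through the transcription factor STAT5. STAT5 induces feedback inhibitors such as Cish and Socs2 and the receptor chain Il2ra itself. CD4 T cells are the main source of IL-2, regulatory T cells depend on it, and in CD8 cells it favours effector over memory differentiation.

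The windows around the transcription start of 3 genes show the motif that STAT5 dimers bind, with 250 bases before and 50 after the start. They come from RefSeq (build GRCm38.p6), and capitals mark each match to TTCNNNGAA, which reads the same on both strands. Foxp3 and Ccr6 are shown because they carried the largest positive and negative differences among the 30 genes named by size (the 15 largest in each direction among genes past the test whose log2 CPM averaged 2 or more), and Cish because it is a known STAT5 target that fell in both cell types.
Foxp3 (chrX:7580233-7580532, plus strand): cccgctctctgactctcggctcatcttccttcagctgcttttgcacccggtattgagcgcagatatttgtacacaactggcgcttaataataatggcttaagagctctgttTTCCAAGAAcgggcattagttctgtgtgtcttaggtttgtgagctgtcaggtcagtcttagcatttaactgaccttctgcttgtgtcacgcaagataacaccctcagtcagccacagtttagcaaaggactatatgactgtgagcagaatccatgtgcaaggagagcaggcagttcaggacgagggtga
Ccr6 (chr17:8235793-8236092, plus strand): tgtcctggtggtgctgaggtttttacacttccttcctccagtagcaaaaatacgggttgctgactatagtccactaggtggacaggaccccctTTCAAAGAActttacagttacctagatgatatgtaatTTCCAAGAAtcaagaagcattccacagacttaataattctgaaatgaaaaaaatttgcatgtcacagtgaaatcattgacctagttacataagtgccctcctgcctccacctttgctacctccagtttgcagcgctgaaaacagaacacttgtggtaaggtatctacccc
Cish (chr9:107296409-107296708, plus strand): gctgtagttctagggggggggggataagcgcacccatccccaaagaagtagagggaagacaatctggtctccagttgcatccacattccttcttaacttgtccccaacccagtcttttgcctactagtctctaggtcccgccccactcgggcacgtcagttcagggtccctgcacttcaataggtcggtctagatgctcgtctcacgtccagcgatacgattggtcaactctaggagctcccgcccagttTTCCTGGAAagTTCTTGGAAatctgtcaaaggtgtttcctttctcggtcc
The Foxp3 window held 1 match and the Ccr6 and Cish windows held 2 each. Foxp3 and Ccr6 each have another annotated start, whose window held 0 matches and is not shown. Of the 9912 tested genes with a window, 832 (8.39%) held the motif in any of their windows, and of 115 such genes whose difference passed the test, 15 did (13%). Among the 30 genes, Foxp3 was the 1 of 12 with a window in the positive direction and Ccr6 the 1 of 12 in the negative. A match describes these letters and does not show binding.

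Total counts in the 12 libraries ran from 15598591 to 24518362. The sorted populations matched their labels: Cd4 was at 1802 to 2013 CPM (the library's counts scaled to a common total) in CD4 libraries and at most 2.52 CPM in CD8 libraries, while Cd8a was at most 2.46 CPM in CD4 libraries and at 912 to 1318 CPM in CD8 libraries. For the 3 CD8 IgG spleen libraries the description names the other tissue, and the tissue of the source name was used. Summed markers of macrophages ran from 93.6 to 477 CPM in CD4 anti-IL-2 and from 115 to 349 in CD4 IgG libraries, and from 214 to 357 in CD8 anti-IL-2 and 193 to 298 in CD8 IgG libraries. In CD4 cells most markers were higher with anti-IL-2 than with IgG in batches 181201 and 181212, and most were lower in batch 190306. The counts higher with anti-IL-2 were 17, 16 and 2 of the 18 in batches 181201, 181212 and 190306. Without Itgam, which T cells also express, the CD4 sums were 439, 61.6 and 46.1 CPM in anti-IL-2 libraries and 80.8, 27.1 and 302 CPM in IgG libraries. In CD8 cells 18, 9 and 2 markers were higher with anti-IL-2. The CD8 sums without Itgam were 170, 66.2 and 71.2 CPM in anti-IL-2 libraries and 91.5, 44.8 and 130 CPM in IgG libraries. Of these CD8 sums, Cd68 alone made up 56.0, 47.5 and 48.3 CPM with anti-IL-2 and 28.4, 26.85 and 62.1 CPM with IgG. In CD4 cells Cd68 was at 17.8, 15.5 and 13.1 CPM with anti-IL-2 and 9.12, 9.345 and 20.9 CPM with IgG. The part of these markers in the differences below was not tested. Summed neutrophil markers reached 119 CPM in the CD4 and 73.6 CPM in the CD8 anti-IL-2 library of batch 190306, against at most 31.2 CPM in the other spleen libraries.

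In batches 181201 and 181212, anti-IL-2 changed many transcripts in both cell types. Against IgG, 2694 of 12841 genes (21.0%) passed an adjusted p of 0.05 in CD4 cells, 1225 higher (9.54%) and 1469 lower (11.4%). In CD8 cells 1592 genes (12.4%) passed, 825 higher (6.42%) and 767 lower (5.97%). Across 9628 genes whose log2 CPM averaged 2 or more, which are not independent replicates, the effects in the 2 cell types had r = 0.766. The median size of the effect over those genes was 0.15 in CD4 cells and 0.12 in CD8 cells on the log2 scale.

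The effect differed between CD4 and CD8 cells for 144 genes (1.12% of those tested) by edgeR's quasi-likelihood test with Benjamini-Hochberg adjustment over all genes. The CD4 effect lay above the CD8 effect for 22 genes (0.171%) and below it for 122 (0.950%). At an unadjusted p under 0.05 the counts were 332 and 789. The size of the 144 differences ran from 0.37 to 3.75. Among the 22, Foxp3, St6gal1, Klrb1c and Crim1 fell in CD8 cells with little or no fall in CD4 cells, while Esm1, Gzmk, Tiam1 and Tspan32 rose in CD4 cells without such a rise in CD8 cells. Among the 122 were killing and NK receptor genes and Csf2, which fell more in CD4 cells, and Ccr6, Id3 and Tcf7, which rose more in CD8 cells. DESeq2 called 113 genes and limma voom 129, of which 95 and 127 were among the 144.

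The error behind these calls is the spread between libraries of a group, 2 in each spleen group, with part of the 5 residual degrees of freedom from gut libraries. The labels do not tie libraries to animals, so it may be technical. Spleen libraries alone gave 126 genes, 110 of them among the 144. CD4 and CD8 libraries of the same batch and treatment deviated together: across genes, the step between batches 181201 and 181212 had r = 0.70 between CD4 and CD8 for anti-IL-2 and 0.652 for IgG, against 0.0213 to 0.121 between libraries of different treatment. With each such CD4 and CD8 pair as a block, 664 genes passed (170 above and 494 below), 142 of the 144 among them. Foxp3 (adjusted p = 0.0867) and Ccr9 (0.058) were the 2 that no longer passed. The fit with pairs gives each pair its own mean, so its p values rest on fewer than 5 residual degrees of freedom. Leaving out any of the 8 libraries lowered the count, to 40 without CD8 anti-IL-2 replicate 1 and to 94 without CD4 IgG replicate 1. The other counts were 50 without CD8 anti-IL-2 replicate 2, 58 and 87 without CD4 anti-IL-2 replicates 1 and 2, 68 and 60 without CD8 IgG replicates 1 and 2, and 73 without CD4 IgG replicate 2. Of 54 genes that passed and are named or listed, 9 passed in all 8 of these fits and 7 in none: Ier3, Ifit1bl1, Hk2, Nbn, Tnfrsf1b, Sh2d5 and Ndrg1. St6gal1, Bach2, Fasl, Serpinb9, Miat, Spry2 and Maats1 passed in 1, Deptor, Cenpe, Cd200r1 and Angptl2 in 2, and Foxp3, Csf2, Ccr9, Tcf7, Mx1 and Itgam in 3. Gzmk, Nkg7, Slamf7 and Pik3r6 passed in 4, Id3 in 5, Ctsw and Il6st in 6, and Klrk1, Klrc2 and Ccr6 in 7.

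**Figure D1:**
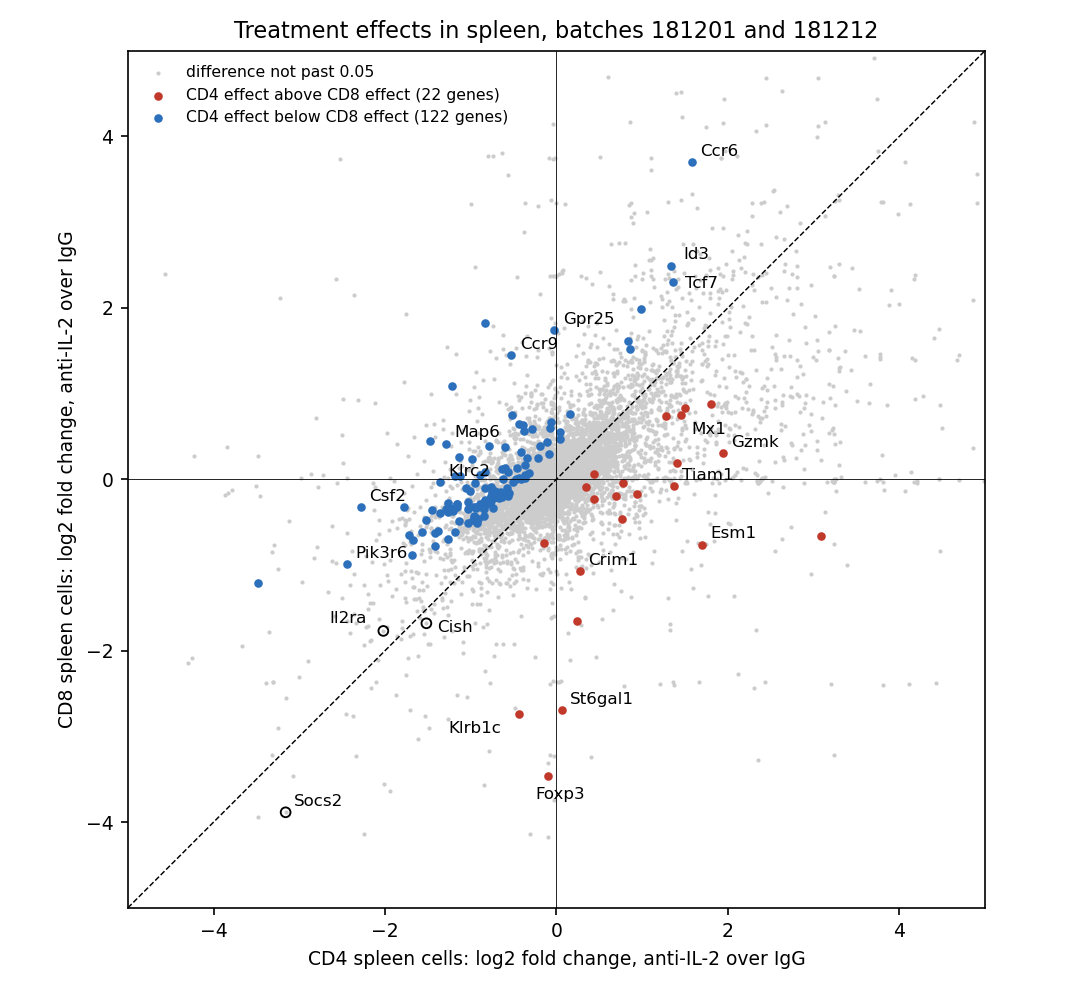
Each point is a gene, with its log2 fold change of anti-IL-2 over IgG in CD4 spleen cells on the x axis and in CD8 spleen cells on the y axis, from batches 181201 and 181212. The 22 genes in red lie right of the dashed line of equal effects and the 122 in blue lie left of it. Open circles mark Il2ra, Cish and Socs2, whose differences (-0.25, 0.16 and 0.73) did not pass. A further 27 genes fall outside the plotted range.

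Each of the 144 genes had also passed in at least 1 cell type by itself. Of the 22 genes with the higher CD4 effect, 11 passed in CD4 cells only, 5 in CD8 cells only, 5 in both in the same direction and 1, Esm1, in both in opposite directions. Of the 122 with the lower CD4 effect, 49 passed in CD4 cells only, 13 in CD8 cells only, 53 in both in the same direction and 7 in both in opposite directions. A gene past 0.05 in a single cell type is placed here by those 2 tests, and the difference itself is what the 144 were tested on. The CD4 effect was the larger in size for 115 of the 144. For 110 of the 144 the gap between CD4 and CD8 cells was wider under anti-IL-2 than under IgG, and for 34 it was narrower. These counts were not made over all genes tested, so they are not read as a trait of the 144. Over 9628 genes the median size of the effect was also larger in CD4 cells (0.15 against 0.12).

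Foxp3, the defining transcription factor of regulatory T cells, gave the largest positive difference among the named genes. CPM values are listed in the order of batches 181201, 181212 and 190306 from here on. In CD4 cells Foxp3 was at 31.9, 35.1 and 72.0 CPM in anti-IL-2 libraries and at 32.9, 38.4 and 67.2 CPM in IgG libraries. The CD8 values were 2.84, 1.82 and 24.5 CPM in anti-IL-2 libraries and at 31.0, 20.9 and 5.62 CPM in IgG libraries. In CD4 cells the treatments lay close together in each batch, whereas in CD8 cells of batches 181201 and 181212 the anti-IL-2 libraries were far below the IgG libraries and in batch 190306 far above. The effect in the first 2 batches was -0.09 ± 0.23 (SE) in CD4 cells and -3.46 ± 0.33 in CD8 cells, a difference of 3.36 ± 0.41 (95% interval 2.40 to 4.33, adjusted p = 0.0155). Under anti-IL-2 the CD4 cells exceeded the CD8 cells by 3.83 ± 0.32 (adjusted p = 5.36e-05), and under IgG by 0.46 ± 0.23 (adjusted p = 0.17). In bulk RNA, fewer Foxp3-expressing cells and less Foxp3 RNA per cell cannot be told apart. Without single libraries the adjusted p of Foxp3 ran from 0.00798 to 0.0844, and it passed in 3 of the 8 fits. The gene lies on chromosome X at 7573644 to 7595245 on the plus strand (mm10, GENCODE M21).

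Of the 19 tested genes in the list of regulatory T cell genes, Foxp3 was the 1 whose difference passed, against 1.12% of all genes tested. The list had 4 positive and 15 negative differences and a median of -0.25. Over all genes tested 7129 of 12841 differences were negative, and the median was -0.02.

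St6gal1 (chromosome 16, 23224740 to 23360350, plus strand), a sialyltransferase of cell surface glycans, had the same shape. It was at 170, 138 and 181 CPM in CD4 anti-IL-2 libraries and at 150, 144 and 180 CPM in CD4 IgG libraries. CD8 cells had 22.5, 22.2 and 178 CPM in anti-IL-2 libraries and at 141, 148 and 25.8 CPM in IgG libraries. The 6 CD4 libraries lay within a narrow range, while the CD8 anti-IL-2 and IgG libraries lay far apart in each batch, with the order turned in batch 190306. The effect was 0.06 ± 0.21 in CD4 cells and -2.69 ± 0.24 in CD8 cells (difference 2.75 ± 0.32, adjusted p = 0.017). In IgG libraries CD4 and CD8 cells differed by 0.03 ± 0.21 (adjusted p = 0.943).

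Klrb1c (chromosome 6, 128778485 to 128789215, minus strand) encodes the NK receptor NK1.1 of C57BL/6 mice, which some activated T cells carry. Levels in CD8 cells were 16.0, 10.9 and 27.5 CPM in anti-IL-2 libraries and at 95.8, 82.2 and 5.49 CPM in IgG libraries. In CD4 cells it was at 19.3, 13.8 and 9.74 CPM in anti-IL-2 libraries and at 25.1, 19.6 and 17.3 CPM in IgG libraries. It fell in both cell types, with an effect of -0.44 ± 0.14 in CD4 cells and -2.74 ± 0.13 in CD8 cells, and the difference was 2.31 ± 0.19 (adjusted p = 0.000109). The summed list of 9 NK cell markers, which includes Klrb1c, ran from 100.4 to 209 CPM in CD4 anti-IL-2 and from 108 to 213 in CD4 IgG libraries, and from 572 to 1590 in CD8 anti-IL-2 and 803 to 1981 in CD8 IgG libraries. Gzma made up most of that sum in each CD8 library. Fcer1g, a signalling chain that NK and myeloid cells share, was at 6.71, 9.05 and 18.3 CPM in CD8 anti-IL-2 libraries and at 19.4, 19.0 and 5.78 CPM in CD8 IgG libraries, low or high in the same libraries as Klrb1c. Eomes of the list ran opposite to Klrb1c in CD8 cells, at 157, 162 and 70.1 CPM with anti-IL-2 and 73.2, 39.4 and 169 CPM with IgG. Tyrobp was at 2.37, 0.235 and 0.699 CPM in CD8 anti-IL-2 and 1.18, 0.277 and 1.42 CPM in CD8 IgG libraries. For Nfil3 these values were 25.9, 36.75 and 30.3 CPM and 36.65, 31.3 and 23.0 CPM. The NK receptor genes Klra4, Klra8 and Ncr1 were at or near 0: Klra4 had no count in any of the 12 libraries, Klra8 was at most 0.0536 CPM and Ncr1 at most 0.482 CPM. The part of NK cells in the Klrb1c values was not tested. Crim1, a membrane protein that binds bone morphogenetic proteins, was at 16.8, 15.5 and 31.9 CPM in CD8 anti-IL-2 libraries and at 32.8, 35.0 and 13.2 CPM in CD8 IgG libraries. It fell in CD8 cells (-1.07 ± 0.10) and was at 0.27 ± 0.10 in CD4 cells (difference 1.34 ± 0.15, adjusted p = 0.00103). Klrb1c and Crim1 passed without each of the 8 libraries in turn, and Klrb1c was at adjusted p = 0.103 without the batch term.

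Esm1, which encodes the secreted proteoglycan endocan, moved in opposite directions. It was at 20.6, 18.4 and 4.17 CPM in CD4 anti-IL-2 libraries and at 5.55, 6.40 and 10.9 CPM in CD4 IgG libraries. In CD8 cells it was at 24.4, 19.2 and 38.3 CPM in anti-IL-2 libraries and at 40.2, 33.7 and 21.6 CPM in IgG libraries. It rose by 1.70 ± 0.13 in CD4 cells and fell by 0.76 ± 0.11 in CD8 cells. The difference of 2.46 ± 0.17 had the smallest adjusted p among the named genes (2.3e-05) and passed in all 16 alternatives tried. The gap between CD4 and CD8 cells was -2.62 ± 0.13 under IgG and -0.16 ± 0.11 under anti-IL-2 (adjusted p = 0.27), so the cell types were close under the antibody.

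Gzmk, which encodes granzyme K of early effector and memory T cells, was at 58.0, 54.0 and 13.3 CPM in CD4 anti-IL-2 libraries and at 15.2, 13.8 and 37.9 CPM in CD4 IgG libraries. The CD8 values were 184, 143 and 155 CPM in anti-IL-2 libraries and at 152, 113 and 197 CPM in IgG libraries. It rose in CD4 cells by 1.95 ± 0.17 and was at 0.30 ± 0.14 in CD8 cells (difference 1.64 ± 0.22, adjusted p = 0.0125). Esm1 (chromosome 13, 113209659 to 113218098, plus strand) lies inside the annotated span of Gzmk (113171608 to 113225908, minus strand). Whether the counting used strand is not given in the sources used here, so how reads of the overlap were counted is not known.

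Tiam1, an activator of the small GTPase Rac, was at 80.5, 98.9 and 32.2 CPM in CD4 anti-IL-2 libraries and at 36.9, 32.5 and 80.1 CPM in CD4 IgG libraries. In all 6 CD8 libraries it stayed between 15.8 and 22.7 CPM. It rose in CD4 cells by 1.37 ± 0.11, against -0.08 ± 0.13 in CD8 cells (difference 1.45 ± 0.17, adjusted p = 0.00136). Tspan32, a tetraspanin of blood cells, was alike, with 0.94 ± 0.08 in CD4 cells and -0.17 ± 0.09 in CD8 cells (difference 1.11 ± 0.12, adjusted p = 0.00103). Smaller positive differences with a CD4 rise were found for Angptl2, a secreted angiopoietin-like protein (1.23), Maats1 (1.21), Rflnb, which binds filamin (0.92), and Nbn, a DNA repair protein (0.83). Of these 4, Rflnb rose in CD8 cells as well, by 0.87 ± 0.13. The differences of Tiam1 and Tspan32 passed without each library in turn.

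Interferon response genes rose in both cell types, 30 of 38 in CD4 cells and 31 of 38 in CD8 cells, and the difference passed for Mx1 alone in that list. Of all genes tested, 9.54% rose in CD4 cells and 6.42% in CD8 cells, and the difference passed for 1.12%. Mx1, an antiviral GTPase, was at 46.7, 53.0 and 22.4 CPM in CD4 anti-IL-2 libraries and at 18.2, 18.1 and 44.7 CPM in CD4 IgG libraries. CD8 cells had 38.7, 43.0 and 29.6 CPM in anti-IL-2 libraries and at 24.0, 24.7 and 50.8 CPM in IgG libraries. Over batches 181201 and 181212 the anti-IL-2 libraries lay above the IgG libraries in each cell type, and the rise was larger in CD4 cells (difference 0.71 ± 0.12, adjusted p = 0.0162). The median difference of the list was 0.03, and Ifit1bl1, an interferon-induced gene outside the list, had a difference of 0.67 (adjusted p = 0.0383). Il6st, the shared signalling chain of the IL-6 receptor family, rose by 1.28 ± 0.06 in CD4 cells and by 0.74 ± 0.06 in CD8 cells (difference 0.54 ± 0.09, adjusted p = 0.0116). It was the 1 follicular helper gene of 17 whose difference passed, although 14 of the 17 rose in each cell type. The shares of all genes tested are given above with the interferon genes.

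**Figure D2:**
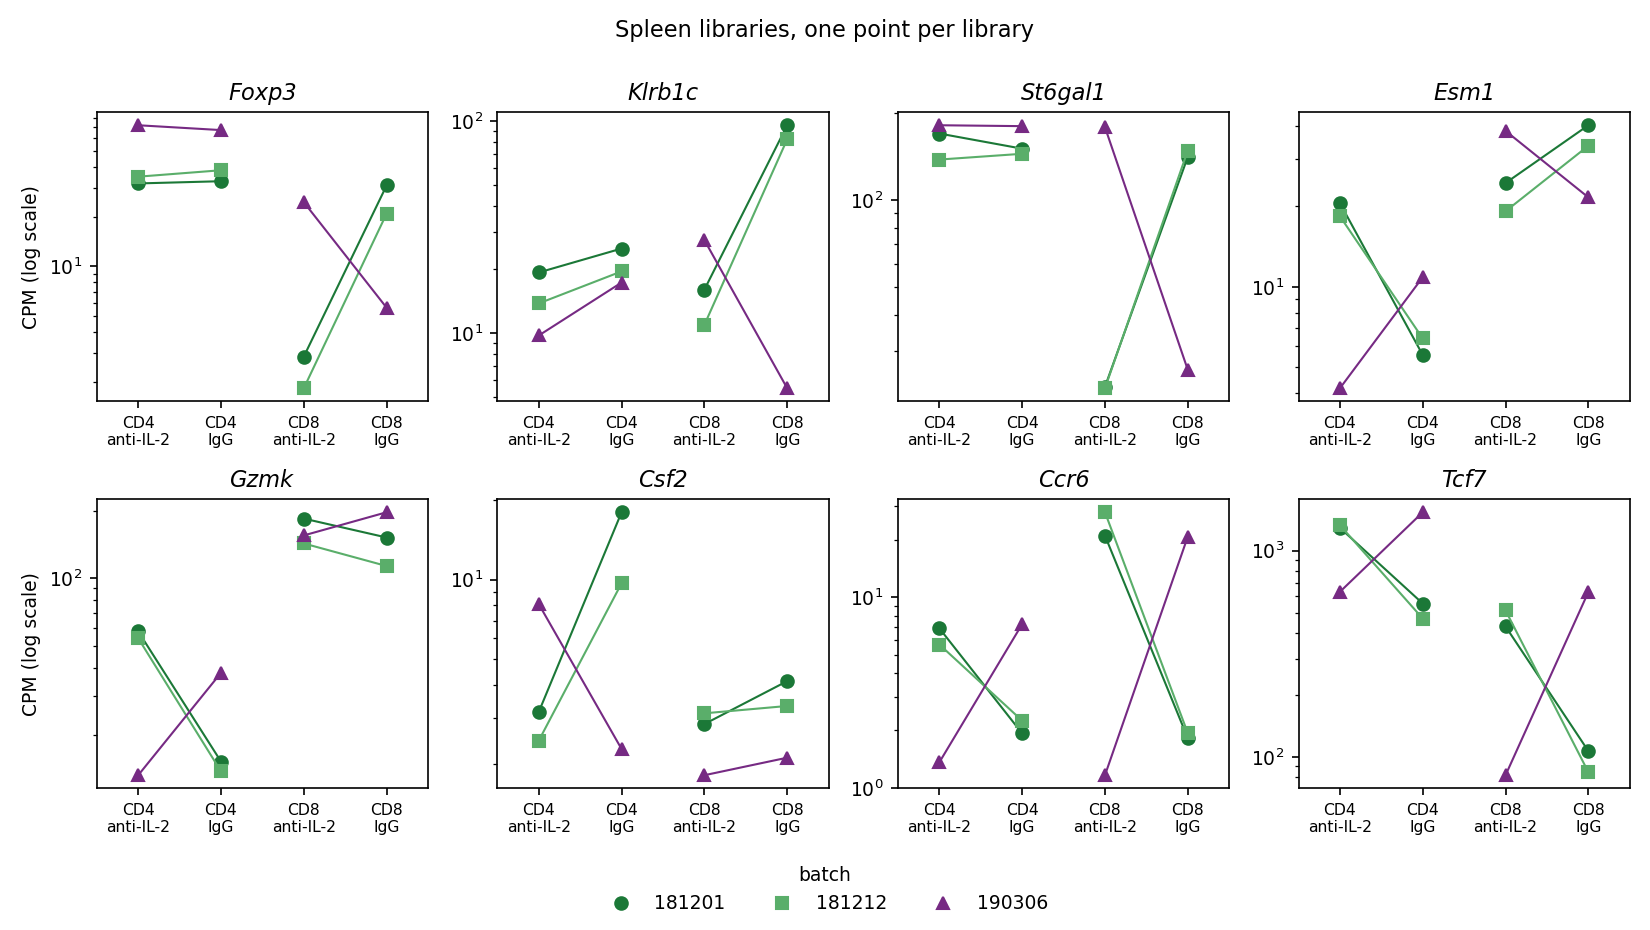
Level of 8 genes in each of the 12 spleen libraries as CPM on log axes, with the groups along the x axis, 1 symbol per batch and lines joining the treatments of a batch. Foxp3 in CD8 cells is at 2.84 and 1.82 CPM with anti-IL-2 against 31.0 and 20.9 CPM with IgG in batches 181201 and 181212, and there the line of batch 190306 slopes the other way.

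Genes of killing gave more members with the lower CD4 effect than any other list. Of the 17 tested cytotoxicity genes, the difference was lower for 6 (Fasl, Nkg7, Ctsw, Serpinb9, Serpinb6b and Slamf7) and higher for 1, Gzmk, which rose in CD4 cells. The shares of all genes tested were 0.950% lower and 0.171% higher. Over the list 13 differences were negative and 4 positive, with a median of -0.54, against 7129 negative of all 12841. In CD4 cells 12 members fell and 3 rose, and in CD8 cells 7 fell and 3 rose. Of all genes tested, 11.4% fell and 9.54% rose in CD4 cells, and 5.97% fell and 6.42% rose in CD8 cells. Ctsw, a protease of killer cells, was at 177, 161 and 260 CPM in CD4 anti-IL-2 libraries and at 252, 269 and 203 CPM in CD4 IgG libraries. Levels in CD8 cells were 474, 434 and 418 CPM in anti-IL-2 libraries and at 429, 478 and 456 CPM in IgG libraries. In CD4 cells the anti-IL-2 library lay below the IgG library in batches 181201 and 181212 and above it in batch 190306. In CD8 cells the order differed between batches 181201 and 181212. The effect was -0.62 ± 0.07 in CD4 cells and 0.00 ± 0.07 in CD8 cells (difference -0.62 ± 0.10, adjusted p = 0.0116). Nkg7, a granule protein needed for degranulation, fell in CD4 cells (-0.35 ± 0.07) and rose in CD8 cells (0.24 ± 0.07), with a difference of -0.59 ± 0.10 (adjusted p = 0.0162). Fasl, the ligand of the death receptor Fas, was at -0.54 ± 0.11 (adjusted p = 0.0268), and Slamf7, an activating receptor, at -0.58 ± 0.10 (adjusted p = 0.0154). Serpinb9, an inhibitor of granzyme B, was at -0.62 ± 0.11 and its relative Serpinb6b at -0.60 ± 0.12. Each of Fasl, Serpinb9, Serpinb6b and Slamf7 had negative effects in both cell types. Gzmb, which encodes granzyme B, fell by 1.69 ± 0.10 in CD4 cells and by 1.15 ± 0.10 in CD8 cells, and its difference of -0.54 (95% interval -0.84 to -0.23) did not pass over all genes (adjusted p = 0.142, and 7.69e-06 with the CD4 and CD8 libraries as pairs).

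NK receptor genes on T cells had 12 negative and 4 positive differences among 16 tested and a median of -0.36, with 2 lower (Klrk1 and Klrc2) and 1 higher (Klrb1c). Over all genes tested 7129 of 12841 differences were negative, and 0.950% passed as lower and 0.171% as higher. Klrk1, which encodes the stress ligand receptor NKG2D, was at 21.7, 16.8 and 34.5 CPM in CD4 anti-IL-2 libraries and at 67.1, 56.1 and 10.6 CPM in CD4 IgG libraries. In CD8 cells it was at 213, 213 and 188 CPM in anti-IL-2 libraries and at 347, 352 and 177 CPM in IgG libraries. It fell by 1.67 ± 0.11 in CD4 cells and by 0.71 ± 0.09 in CD8 cells (difference -0.96 ± 0.15, adjusted p = 0.011). Klrc2, a receptor of the NKG2 family, fell in CD4 cells (-1.36 ± 0.16) and was at -0.03 ± 0.14 in CD8 cells (difference -1.33 ± 0.21, adjusted p = 0.0103). Klrb1c was the 1 member of the list that passed with a positive difference, its fall being the larger in CD8 cells. How reads of near copies in the Klrb1, Klrc, Serpinb and Cd200r families were counted is not given in the sources used here. Values of single members of these families are therefore uncertain.

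The list of inhibitory receptor genes gave 3 lower differences among 20 tested, against 0.950% of all genes tested, with a median of -0.21. Havcr2, which encodes TIM-3, was at 53.8, 62.0 and 98.2 CPM in CD4 anti-IL-2 libraries and at 126, 147 and 44.5 CPM in CD4 IgG libraries. The CD8 values were 283, 279 and 264 CPM in anti-IL-2 libraries and at 345, 362 and 180 CPM in IgG libraries. It fell by 1.24 ± 0.08 in CD4 cells and by 0.33 ± 0.08 in CD8 cells, a difference of -0.91 ± 0.11 (adjusted p = 0.00211) that passed without each library in turn. The others were Cd200r1 (-0.86 ± 0.17), a receptor for the inhibitory ligand CD200, and its relative Cd200r4 (-1.17 ± 0.21). The place of Cd200r4 in the list does not show that it inhibits. Pdcd1, which encodes PD-1, was at 0.09 ± 0.06 in CD4 cells and 0.37 ± 0.06 in CD8 cells, and its difference of -0.28 (95% interval -0.46 to -0.09) did not pass (adjusted p = 0.219, and 0.0132 with the pairs).

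Csf2 (chromosome 11, 54247271 to 54249667, minus strand) encodes the cytokine GM-CSF, which T cells use to activate myeloid cells. It was at 3.15, 2.46 and 8.08 CPM in CD4 anti-IL-2 libraries and at 18.0, 9.69 and 2.28 CPM in CD4 IgG libraries. CD8 cells had 2.84, 3.12 and 1.82 CPM in anti-IL-2 libraries and at 4.13, 3.32 and 2.12 CPM in IgG libraries. It fell in CD4 cells by 2.28 ± 0.23 and was at -0.32 ± 0.26 in CD8 cells, a difference of -1.96 ± 0.36 (adjusted p = 0.0185). CD4 cells exceeded CD8 cells by 1.87 ± 0.22 under IgG (adjusted p = 2.59e-05) and were at -0.09 ± 0.27 relative to them under anti-IL-2 (adjusted p = 0.831). Csf2 and Il18r1 (-0.50 ± 0.07), a chain of the IL-18 receptor, were the 2 lower genes of the 21 in the list of Th1 and inflammatory genes. The share of lower genes over all genes tested was 0.950%. Ifng, the main Th1 cytokine, had a difference of -0.45 with a wide interval of -2.12 to 1.22.

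Further genes with a CD4 fall were Map6, which stabilises microtubules, Miat, a long non-coding RNA, and Pik3r6, a regulatory subunit of the kinase PI3K gamma. Map6 was at 10.4, 14.7 and 37.4 CPM in CD4 anti-IL-2 libraries and at 29.5, 30.9 and 14.2 CPM in CD4 IgG libraries. Its effect was -1.29 ± 0.13 in CD4 cells and 0.41 ± 0.16 in CD8 cells (difference -1.70 ± 0.20, adjusted p = 0.00136). Miat had a difference of -1.45 ± 0.26, and Pik3r6 of -1.45 ± 0.25 with falls of 2.44 in CD4 cells and 0.99 in CD8 cells. Deptor, an inhibitor of mTOR, fell by 3.48 ± 0.21 in CD4 cells and by 1.21 ± 0.32 in CD8 cells (difference -2.27 ± 0.43, adjusted p = 0.0218), although CD8 levels were at most 1.33 CPM. Itgam, an integrin chain shared with macrophages, had a difference of -1.40 ± 0.24 (adjusted p = 0.0389), with 38.2, 32.0 and 76.5 CPM in CD4 anti-IL-2 libraries and 67.0, 87.6 and 47.1 CPM in CD4 IgG libraries. Of the 17 tested macrophage markers 15 had a positive difference, with a list median of 1.56, and Itgam, with a negative value, was the 1 that passed. Positive differences were found for 5711 of all 12841 genes tested. The remaining named genes, Ier3, Prickle1, Sh2d5 and Spry2 (an inhibitor of growth factor signalling), had differences from -1.26 to -1.18.

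Another set with the lower CD4 effect rose in CD8 cells by more than in CD4 cells. Ccr6, a chemokine receptor for mucosal homing, was at 6.87, 5.65 and 1.36 CPM in CD4 anti-IL-2 libraries and at 1.93, 2.25 and 7.23 CPM in CD4 IgG libraries. Levels in CD8 cells were 21.1, 27.9 and 1.16 CPM in anti-IL-2 libraries and at 1.82, 1.94 and 20.8 CPM in IgG libraries. In IgG libraries of batches 181201 and 181212 the cell types were at similar low levels, and under anti-IL-2 the CD8 libraries lay above every CD4 library. It rose by 1.58 ± 0.24 in CD4 cells and by 3.70 ± 0.22 in CD8 cells (difference -2.12 ± 0.35, adjusted p = 0.0116). Ccr9, a receptor for homing to the small intestine, rose in CD8 cells (1.45 ± 0.26) and was at -0.52 ± 0.18 in CD4 cells (difference -1.98 ± 0.32, adjusted p = 0.0197). Ccr9 is also a marker of plasmacytoid dendritic cells. Summed dendritic cell markers were at 117 to 184 CPM in CD4 anti-IL-2 and 131 to 176 in CD4 IgG libraries, and at 364 to 531 in CD8 anti-IL-2 and 477 to 514 in CD8 IgG libraries. Itgax made up most of each CD8 sum, at 400, 307 and 489 CPM with anti-IL-2 and 459, 484 and 406 CPM with IgG. Cd74 of the list was at 21.9, 14.3 and 4.70 CPM in CD8 anti-IL-2 and 11.2, 4.10 and 16.5 CPM in CD8 IgG libraries. In CD4 cells Cd74 was at 73.4, 43.5 and 15.6 CPM with anti-IL-2 and 20.05, 12.1 and 67.0 CPM with IgG. The part of dendritic cells in the Ccr9 values was not tested. Gpr25, a G protein-coupled receptor, was at 14.2, 9.41 and 6.66 CPM in CD8 anti-IL-2 libraries and at 4.07, 2.99 and 19.7 CPM in CD8 IgG libraries. It rose in CD8 cells by 1.74 ± 0.20, against -0.02 ± 0.16 in CD4 cells (difference -1.76 ± 0.25, adjusted p = 0.00686), and passed in all 16 alternatives.

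Transcription factors of naive and memory T cells followed. Tcf7 (chromosome 11, 52252371 to 52283014, minus strand), which encodes TCF1, was at 1288, 1326 and 631 CPM in CD4 anti-IL-2 libraries and at 554, 468 and 1533 CPM in CD4 IgG libraries. In CD8 cells it was at 429, 513 and 81.7 CPM in anti-IL-2 libraries and at 107, 84.5 and 630 CPM in IgG libraries. In both cell types the anti-IL-2 library lay above the IgG library in batches 181201 and 181212 and below it in batch 190306. Tcf7 rose by 1.36 ± 0.12 in CD4 cells and by 2.30 ± 0.13 in CD8 cells (difference -0.95 ± 0.17, 95% interval -1.33 to -0.57, adjusted p = 0.0333). Id3, an inhibitor of E proteins, was at 32.9, 34.5 and 19.1 CPM in CD4 anti-IL-2 and at 14.3, 12.5 and 59.1 CPM in CD4 IgG libraries. In CD8 cells Id3 was at 12.1, 12.8 and 2.89 CPM in anti-IL-2 and at 2.46, 1.94 and 26.3 CPM in IgG libraries. It rose by 1.34 ± 0.11 in CD4 cells and by 2.49 ± 0.16 in CD8 cells (difference -1.16 ± 0.20, adjusted p = 0.0154). Bach2, a repressor of effector genes, had a difference of -0.78 ± 0.17 (adjusted p = 0.0438). These 3 were the lower genes among 20 naive and memory genes tested, of which 13 rose in CD4 cells and 12 in CD8 cells. Over all genes tested 0.950% were lower, and 9.54% rose in CD4 cells and 6.42% in CD8 cells. The list's median difference was -0.06. Bcl2, an inhibitor of apoptosis, was at 0.03 ± 0.10 in CD4 cells and rose by 0.67 ± 0.10 in CD8 cells. Its difference of -0.64 (95% interval -0.95 to -0.33) had an adjusted p of 0.0649, and of 0.0001 with the pairs.

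No receptor or feedback gene of the IL-2 pathway had a difference that passed. Il2ra, the high-affinity receptor chain, was at 60.2, 61.0 and 224 CPM in CD4 anti-IL-2 libraries and at 238, 254 and 65.9 CPM in CD4 IgG libraries. The CD8 values were 55.9, 53.2 and 158 CPM in anti-IL-2 libraries and at 168, 204 and 44.4 CPM in IgG libraries. In both cell types the anti-IL-2 library lay below the IgG library in batches 181201 and 181212 and above it in batch 190306. The difference of effects was -0.25 with a 95% interval of -0.61 to 0.11 (adjusted p = 0.79). Cish was at 36.5, 34.6 and 91.4 CPM in CD4 anti-IL-2 libraries and at 118, 86.2 and 38.1 CPM in CD4 IgG libraries. CD8 cells had 13.2, 11.7 and 23.2 CPM in anti-IL-2 libraries and at 40.3, 39.5 and 9.20 CPM in IgG libraries. Cish fell by 1.52 ± 0.10 in CD4 cells and by 1.68 ± 0.12 in CD8 cells, with a difference of 0.16 (-0.18 to 0.51). For the feedback inhibitor Socs1 it was -0.12 (-0.44 to 0.20), for Il2rb, the chain shared with IL-15, -0.26 (-0.49 to -0.02) and for Socs2 0.73 (-0.01 to 1.47). The adjusted p of these 4 ran from 0.498 to 0.957, and that of Il2rb was 0.00861 with the pairs. The intervals bound a differential effect of Cish and Il2ra on the log2 scale at 0.51 and 0.61 in size, while that of Socs2 could reach 1.47, and levels of Socs2 in CD8 anti-IL-2 libraries were at 0.619 and 0.47 CPM. Of the 49 tested IL-2 and STAT5 targets, Foxp3 was higher and Il18r1 and Tnfrsf9, a costimulatory receptor, were lower, with a median difference of -0.13. Over all genes tested 0.171% were higher and 0.950% lower, with a median of -0.02. None of the 15 tested IL-2 and common gamma chain receptor genes passed, and their median was -0.25.

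Further core genes did not pass, with intervals of unequal width. Cxcr5, the B cell follicle homing receptor, rose by 1.92 ± 0.20 in CD4 cells and by 3.75 ± 0.30 in CD8 cells. Its difference of -1.82 (95% interval -2.69 to -0.95) had an adjusted p of 0.0913, and of 8.43e-07 with the pairs. Eomes, a T-box factor, was at 31.1, 33.6 and 4.57 CPM in CD4 anti-IL-2 libraries and at 4.73, 2.42 and 20.0 CPM in CD4 IgG libraries. Its difference was 1.67 (0.11 to 3.22, adjusted p = 0.515, and 1.14e-07 with the pairs). Bcl6 (0.25), Tox (-0.24), Il10 (-0.25) and Il2 (-2.03, with a 95% interval of -4.11 to 0.05) did not pass. Il2 was at most 0.235 CPM in CD8 libraries.

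**Figure D3:**
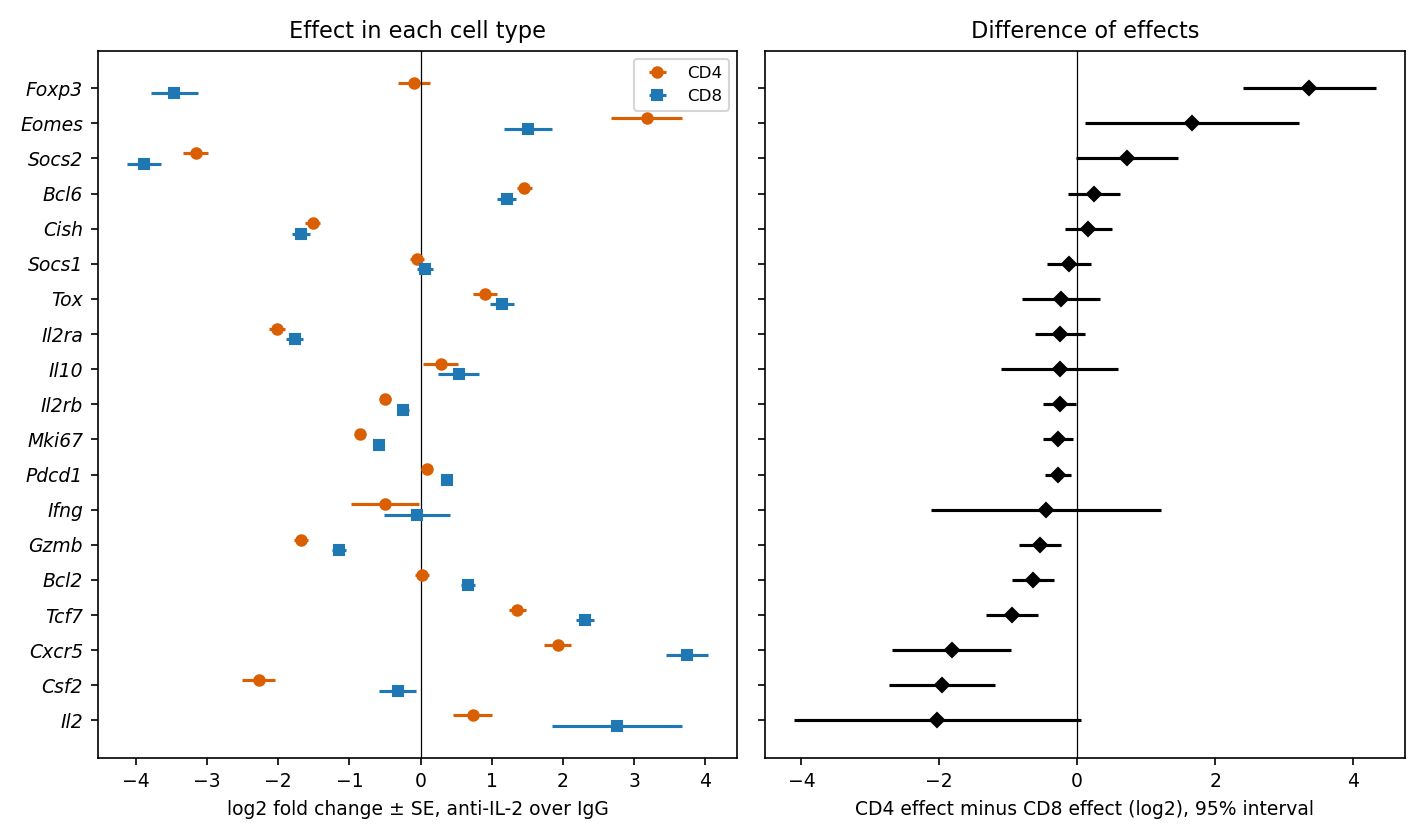
Left, log2 fold change of anti-IL-2 over IgG with its SE in CD4 cells (circles) and CD8 cells (squares) of batches 181201 and 181212 for 19 genes. Right, the CD4 effect minus the CD8 effect with its 95% interval. Foxp3 (3.36) and Csf2 (-1.96) lie far from 0, while the intervals of Il2ra, Cish and Socs2 include 0.

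Cell cycle genes fell in both cell types, most with the lower value in CD4 cells. Of 40 proliferation genes, 36 fell in CD4 cells and 33 in CD8 cells, 37 had a negative difference and 2 passed, with a median of -0.27. Those were Cenpe, a spindle motor protein (-0.52 ± 0.09, adjusted p = 0.0164), and Ube2c, a ubiquitin-conjugating enzyme of mitosis (-0.68 ± 0.15, adjusted p = 0.0435). Mki67 was at -0.28 (95% interval -0.49 to -0.06, adjusted p = 0.358, and 0.0158 with the pairs). In glycolysis 2 of 21 genes were lower, the glucose transporter Slc2a3 (-0.48 ± 0.09) and the hexokinase Hk2 (-0.53 ± 0.11), with a list median of -0.0012. TNF receptor family costimulators had 3 lower of 18 (Tnfrsf9, Tnfrsf1b and Tnfrsf25), and tissue residence and homing genes 3 lower of 20 (Ccr6, Ccr9 and Cxcr6), with medians of -0.13 and -0.29. In the Th17 list Rora and Ccr6 were lower of 13. The lists of Th2 genes (10 tested), cholesterol synthesis (23) and heat shock (16) held no gene that passed. Over all genes tested the median difference was -0.02, and 7129 of 12841 were negative. Of these 12841 genes 0.950% passed as lower, and 11.4% fell in CD4 cells and 5.97% in CD8 cells.

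**Figure D4:**
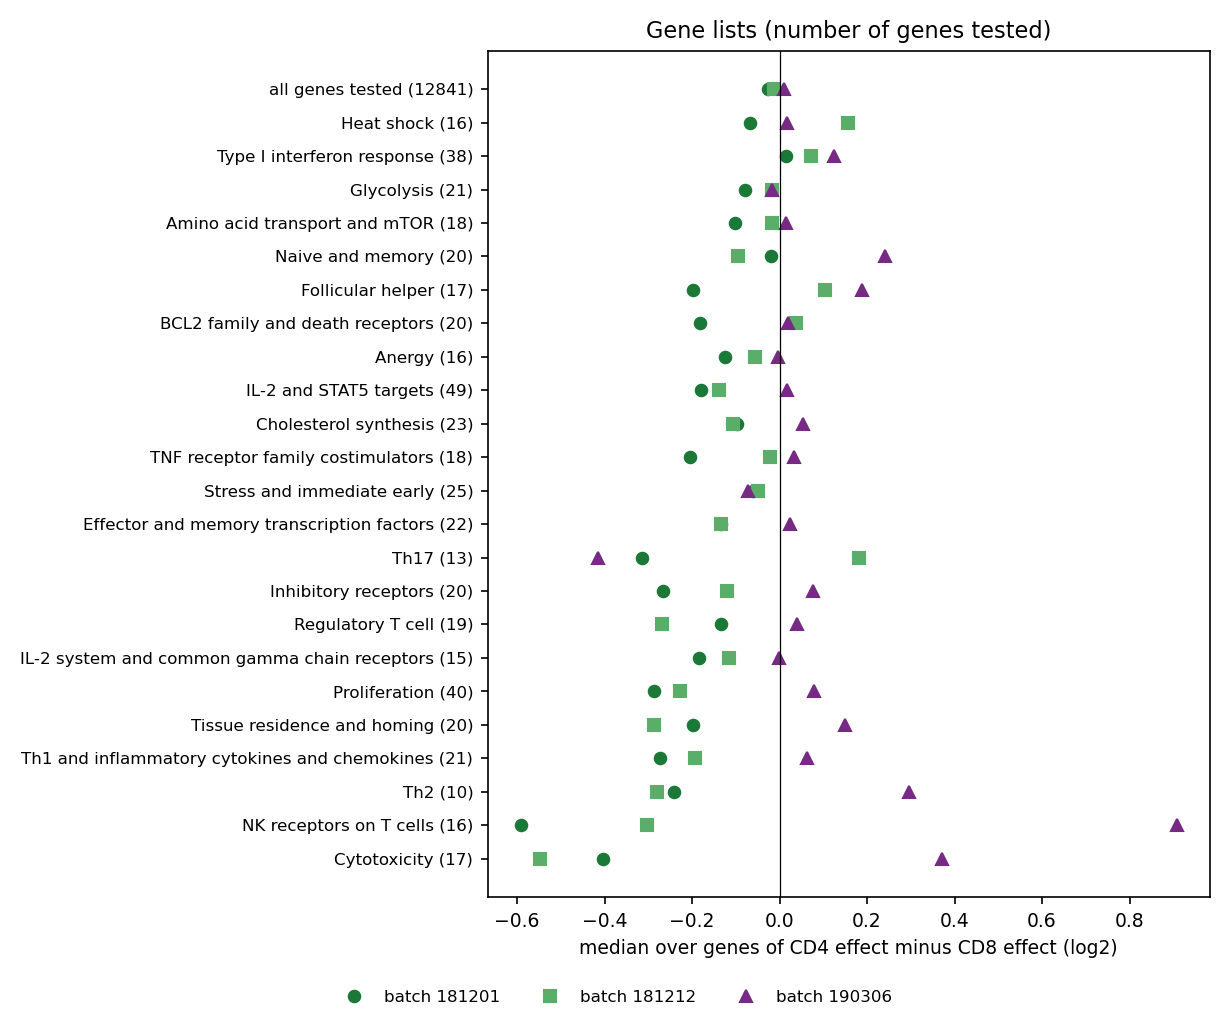
Median difference of effects (CD4 minus CD8, log2) over the tested genes of each list of T cell functions, inside each batch. Of the lists drawn, cytotoxicity and NK receptor genes lie lowest in batches 181201 and 181212, below the median of all genes at the top, and are positive in batch 190306.

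In batch 190306 the labelled contrast ran the other way. The difference of effects inside that batch correlated with that inside batch 181201 at r = -0.499 and inside batch 181212 at r = -0.50 over 9628 genes, against r = 0.522 between batches 181201 and 181212. These are descriptions across genes. Of the 144 genes, 140 (97.2%) had the opposite sign in batch 190306, against 62.7% of all genes tested. The median difference of the 22 was 1.01 in batch 181201, 1.19 in batch 181212 and -0.93 in batch 190306. That of the 122 was -0.67, -0.66 and 0.49. Agreement in sign between batches 181201 and 181212 was largely fixed by the choice of these genes.

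Single genes show the turn. The difference of Foxp3 was 3.36, 3.32 and -2.01 inside the 3 batches, that of Klrb1c 2.20, 2.40 and -3.12, and that of Esm1 2.58, 2.32 and -2.18. That of Csf2 was -1.95, -1.85 and 1.99, and that of Ccr6 was -1.68, -2.49 and 1.72. The 30 named genes all had the opposite sign in batch 190306.

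A test of batch 190306 minus the other batches passed for 191 genes (1.49%), 156 higher (1.21%) and 35 lower (0.273%). It passed for 114 of the 144, which shares libraries with their selection. Batch 190306 was set apart for its reversed treatment difference, so this test also draws on the values that set it apart. Within batch 190306 alone, where each group is 1 library and the spread is taken from the other batches, 22 genes passed (0.171%), 16 higher (0.125%) and 6 lower (0.0467%). They included Klrb1c (-3.15 ± 0.28), Esm1 (-2.21 ± 0.24), Tiam1 (-1.58 ± 0.23) and Crim1 (-1.25 ± 0.20). Tcf7 (1.67 ± 0.24), Klrk1 (1.61 ± 0.21), Id3 (1.55 ± 0.25) and Map6 (1.53 ± 0.27) were among the 16. Of the 22 genes, 15 were among the 144. In both cell types Il2ra and Cish were also at higher CPM with the anti-IL-2 label than with the IgG label in this batch. Whether the treatment labels of this batch were exchanged was not tested; the libraries kept their labels, and the doubt bears on every value of batch 190306 and on the fit of all 3 batches. Summed neutrophil markers were high in the anti-IL-2 libraries of this batch, as given above, and their part in these values was not tested.

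**Figure D5:**
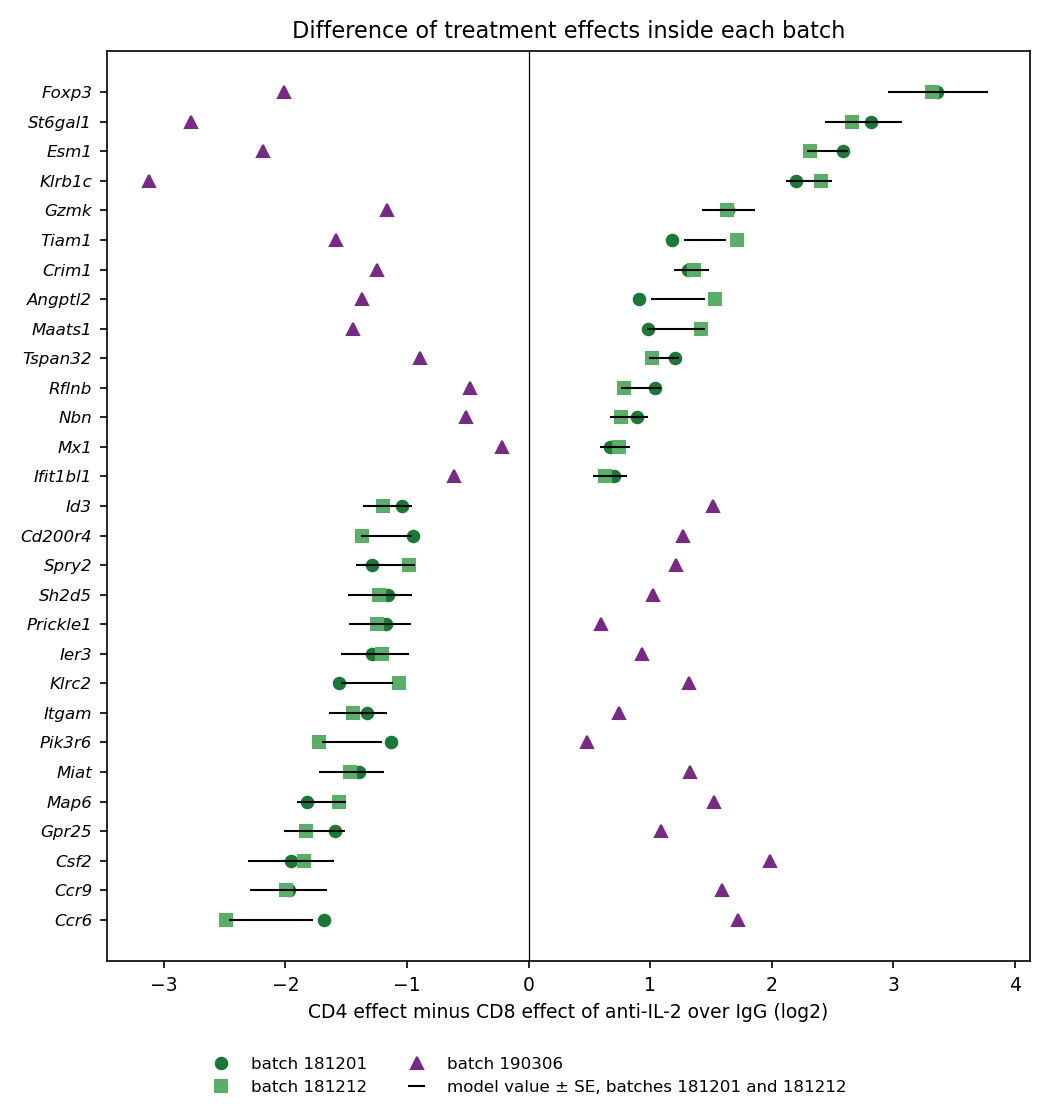
Of the 30 genes named by size, 29 with the CD4 effect minus the CD8 effect inside each batch and, for batches 181201 and 181212 together, the model value with its SE. All 14 genes right of 0 in batches 181201 and 181212 lie left of 0 in batch 190306, and the 15 on the left lie right of it.

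With all 3 batches in a single model of 8 groups and batch, 0 genes passed (0% of 12841) by edgeR, and 0 by DESeq2 and by limma voom. Without adjustment 40 genes lay under 0.05, 19 higher and 21 lower. Among genes whose log2 CPM averaged 2 or more, the gene ranked first by edgeR was Ubash3b, an inhibitor of T cell receptor signalling, with differences of -0.49, -0.34 and -0.24 inside the 3 batches (model value -0.36 ± 0.10). It was the 1 gene of the 10 with the smallest p that also passed in batches 181201 and 181212 (-0.42 ± 0.08, adjusted p = 0.03). The other 9 had a mean log2 CPM under 2.

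The same contrast in gut libraries did not define the difference, although gut libraries entered the filter, batch term and spread of the model that called the genes. It had the same sign as in spleen for 98 of the 144 genes (68.1%) in batch 181212, against 51.9% of all genes tested. In gut of batch 190306 the sign was opposite for 117 (81.2%), against 56.4%. In gut of batch 181212 the sign held for 20 of the 22 and for 78 of the 122. Over 9628 genes the difference in gut of batch 181212 correlated with that in spleen of batch 181201 at r = 0.159, and gut with spleen inside batch 190306 at r = 0.353. The last pair shares the batch, and each gut value rests on 4 single libraries.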

How the data were processed

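Polyadenylated RNA of donor CD4 and CD8 T cells was sequenced with a stranded kit, per the labels' protocols. The authors deposited a table of read counts per gene name, unnormalized by its whole numbers and unequal totals. TopHat2, HTSeq 0.9.1 and build mm10 are named, per the submitters' processing notes. The annotation, strand setting and filters are not given in the sources used here.

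Counts were tested with edgeR 4.0.16 in R 4.3.3 (TMM scaling, robust quasi-likelihood, Benjamini-Hochberg adjustment at 0.05) over 12841 of 24091 genes that passed filterByExpr. A single model of all 22 libraries had group means for batches 181201 and 181212 with a batch term, and separate means for batch 190306 (5 residual degrees of freedom, none from batch 190306). A model of groups and batch over all 3 batches had 12. Intervals use the moderated degrees of freedom. Levels and their sums are CPM over TMM-scaled library sizes, and filters by mean level use log2 CPM with a prior count of 2.

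The replicate number marks the batch for spleen libraries but not for gut libraries, so the batch itself was used. Spleen libraries of a batch and treatment were checked for deviating together (r = 0.70 and 0.652). A fit with such pairs as blocks was therefore made as an alternative. Others were DESeq2 1.42.0, limma 3.58.1 voom, RLE size factors, no low-count filter, spleen libraries only, no batch term and each library left out. The main test was first run on simulated counts, with differences added in CD4 anti-IL-2 libraries only. Each library was drawn independently, so that run did not cover pairs that deviate together.

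Named genes were the 15 largest differences per direction among called genes whose log2 CPM averaged 2 or more and whose sign was shared by both batches, up to 4 members with the smallest p from each of 33 gene lists, a fixed set of core genes, and the 10 smallest p where fewer than 5 passed. Further examples from a class or from batch 190306 were named after their values were seen. Of the 30 named by size, 1 is counted but not reported here. The members and lists were chosen with earlier results of these data known. Coordinates come from GENCODE M21 (97.6% of names matched), promoter windows from RefSeq. Of the list members, 9 were not in the table and 35 were not tested.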

Additional observations from a re-analysis of the deposited data

Results flagged for a closer look

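The treatment effect differed between CD4 and CD8 cells, by a test of the difference itself, with 22 genes higher and 122 lower in batches 181201 and 181212. That difference in turn differed between batch 190306 and the other batches for 156 genes higher and 35 lower. Batch 190306 was set apart because its labelled treatment difference ran the other way. The test between batches therefore draws on the values that set it apart. Of the 30 genes named by size, 28 passed this test by edgeR.

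On the log2 scale, the difference in batch 190306 minus that in batches 181201 and 181212 was -5.53 for St6gal1, -5.46 for Klrb1c, -5.39 for Foxp3 and -4.66 for Esm1. It was -3.03 for Tiam1, -2.82 for Gzmk, -2.68 for Maats1, -2.60 for Angptl2, -2.59 for Crim1 and -2.01 for Tspan32. Smaller values were found for Rflnb (-1.39), Nbn (-1.34), Ifit1bl1 (-1.29) and Mx1 (-0.93).

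Positive values were found for Csf2 (3.995), Ccr6 (3.87), Ccr9 (3.60), Map6 (3.24), Gpr25 (2.87), Miat (2.79), Id3 (2.71) and Klrc2 (2.68). The rest were Cd200r4 (2.46), Spry2 (2.40), Sh2d5 (2.26), Ier3 (2.20) and Pik3r6 (1.94). Itgam (adjusted p = 0.0503) and Prickle1 (adjusted p = 0.072) were the 2 named genes that did not pass. Each group of batch 190306 is 1 library, so the spread of these values comes from batches 181201 and 181212, and the test reuses the libraries that chose the genes.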

How the results depend on the processing

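Each group of the main comparison holds 2 libraries and 5 residual degrees of freedom carry the model, which limits which differences can pass. With CD4 and CD8 libraries of a batch, tissue and treatment as a replicate block, 170 genes were higher and 494 lower, against 22 and 122 without it. Dropping the batch term left 11 higher and 51 lower. Leaving out single libraries gave 6 to 19 higher and 34 to 80 lower. DESeq2, limma voom, RLE size factors, no filter, spleen libraries only, and a fit of batches 181201 and 181212 only gave totals of 113, 129, 119, 156, 126 and 120. With RLE the median of all differences was 0.01 in place of -0.02, and the split was 22 to 97.

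Within batch 190306, limma voom gave 6 higher genes and spleen libraries only gave 3, against 16. For batch 190306 minus the other batches, leaving out single libraries gave 112 to 159 higher and 22 to 49 lower. With all 3 batches, 0 genes passed under every alternative run, including leaving out each of the 12 libraries (0 to 0 in each direction). For the CD4 effect, DESeq2 gave 667 higher and 845 lower, and leaving out single libraries 739 to 910 and 866 to 1063. For the CD8 effect, DESeq2 gave 423 higher and 421 lower, the fit without a batch term gave 473 lower, and leaving out single libraries gave 364 to 502 and 295 to 456. The causes of these shifts were not tested.

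Of the 30 genes named by size, 7 passed without each of 8 libraries in turn, and 8 passed under each of 8 other alternatives. Of 54 genes that passed and are named or listed, 0 changed sign. Among core genes that did not pass, leaving out single libraries gave differences of -0.039 to 0.384 for Cish, -1.02 to 0.18 for Ifng, -0.72 to 0.084 for Il10 and -0.247 to 0.0015 for Socs1, so their sign depended on a library. The sign changes came without CD4 IgG replicate 2 for Cish, CD4 IgG replicate 1 for Ifng, either of CD4 IgG replicate 1 (0.06) and CD8 IgG replicate 2 for Il10, and CD8 IgG replicate 2 for Socs1. Of 528 recomputed list medians, 127 moved and 46 changed sign.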
